A study of Mus musculus with 18 samples.

Results

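Bone morphogenetic protein (BMP) signalling was described through 10 genes, 6 ligands (Bmp2, Bmp4, Bmp5, Bmp6, Bmp7 and Gdf10) and the 4 Id genes (Id1, Id2, Id3 and Id4), in sorted mouse dermal fibroblasts. The 10 genes were chosen by name from 18193 genes that had a probe set with 1 gene symbol. Of several such probe sets for a gene, the brightest on average across the 18 arrays stood for it and the others served as a check. Values are log2 expression from Affymetrix Mouse Genome 430 2.0 arrays, deposited by the authors after RMA, so a difference of 1 is a doubling.

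The study sorted cells by a lineage reporter, R26mTmG, in which cells are red until Cre recombinase turns them and their descendants green. There were 6 groups of 3 arrays. EPF cells were green and not red, and ENF cells red and not green; both came from En1Cre; R26mTmG mice, from dorsal dermis. En1Cre marks descendants of cells that once expressed Engrailed-1, so the ENF gate took in any remaining red cell of that dermis. Oral cells, from oral mucosa, and Cranial cells, from cranial dermis, were green cells of Wnt1Cre; R26mTmG mice, a line that marks the neural crest. Ventral and Dorsal cells were the green cells of ventral dermis and of dorsal dermis in the En1Cre; R26mTmG line. Every group was untreated and sorted as negative for CD31, CD45, Tie2, Tie119 (as the labels spell it), EpCAM and DAPI. The labelled age is postnatal day 56 for EPF and ENF and day 30 for the other 4 groups. For back skin the protocol instead states an age of 30 days, and which holds was not settled. Nothing in the labels says whether the 3 arrays of a group came from separate animals, so p-values measure only the spread between these arrays. Site and Cre line change together between the Wnt1Cre groups (Oral and Cranial) and the En1Cre groups (Ventral and Dorsal), so their contributions cannot be told apart.

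BMPs are secreted dimers that bind type I and type II serine/threonine kinase receptors. The type I receptors phosphorylate Smad1, Smad5 and Smad9, which enter the nucleus with Smad4 and switch on target genes, among which the Id genes are textbook direct targets. Id proteins carry a helix-loop-helix but no DNA-binding domain, and they hold E proteins and related factors away from DNA, which delays differentiation in many lineages. In skin, BMPs from dermal cells and subcutaneous fat act on the hair follicle cycle, the dermal papilla and pigment cells, and BMP signalling also shapes cranial neural crest derivatives. Id genes answer to other stimuli as well, including serum.

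The 2 sets of arrays, EPF with ENF and the 4 sites, differed in overall level. Correlations over all genes were 0.962 to 0.988 within the EPF and ENF arrays, 0.946 to 0.998 within the 12 site arrays, and 0.872 to 0.926 across the sets. Levels are therefore given side by side across the sets but not tested, because set and group cannot be told apart. The closest pair, Cranial 1 and Cranial 2, had a median absolute difference of 0.0853 over genes, against 0.13 and 0.14 for the other Cranial pairs, and only 18 genes had equal values. The fibroblast marker list (Pdgfra, Col1a1, Dcn and 4 others) averaged 11.64 to 13.89 in every array. Pecam1 and Ptprc, the genes of CD31 and CD45, averaged 3.77 to 4.21 in every group, near the arrays' lower quartiles of 3.93 to 4.10. Other members of those endothelial and leukocyte lists were higher: Csf1r averaged 9.88 in EPF and 7.19 in ENF cells and 6.48 to 7.67 in the site groups, Kdr 8.38 and 8.87, and 6.55 to 7.28, and Lyz2 5.64 and 5.76, and 6.11 to 7.04. Keratinocyte markers were a different matter in the back-skin set, where the list mean was 4.24 to 8.66 in EPF arrays and 8.13 to 10.77 in ENF arrays, against 4.27 to 4.77 in the site arrays. These are sorted bulk samples, so fewer cells of a kind and less RNA per cell cannot be told apart. Dorsal 3 and Ventral 1 had Id levels away from the other arrays of their groups, and some results are also given without them. Both were picked by their Id values. Leaving them out therefore narrows the spread of Id1, Id2 and Id3 and widens their gap to the Wnt1Cre groups by construction. Id results without them are descriptions and add no support.

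The upstream sequences of Id2, Id3 and Id4, the Id genes with a matched promoter, are shown. Over the 12 site arrays their pairs had Pearson's r of 0.77 to 0.96, which includes the differences between sites. The window is short, so Smad sites farther from the gene start would not be seen in it. The sequences are the 250 bases before each gene's start, from RefSeq on mouse GRCm38.p6, printed on the gene's own strand with capitals marking GGCGCC, a GC-rich Smad element. The RefSeq promoter table matched 7 of the 10 genes; Id1, Bmp2 and Bmp7 were not matched. Id2 lies on the minus strand (chr12:25096093-25096342), and Id3 (chr4:136143572-136143821) and Id4 (chr13:48260866-48261115) on the plus strand.
Id2: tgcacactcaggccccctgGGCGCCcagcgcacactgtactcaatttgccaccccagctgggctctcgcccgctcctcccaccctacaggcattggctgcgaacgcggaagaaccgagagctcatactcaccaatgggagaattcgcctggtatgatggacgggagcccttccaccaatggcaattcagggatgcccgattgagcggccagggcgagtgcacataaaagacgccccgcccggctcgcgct
Id3: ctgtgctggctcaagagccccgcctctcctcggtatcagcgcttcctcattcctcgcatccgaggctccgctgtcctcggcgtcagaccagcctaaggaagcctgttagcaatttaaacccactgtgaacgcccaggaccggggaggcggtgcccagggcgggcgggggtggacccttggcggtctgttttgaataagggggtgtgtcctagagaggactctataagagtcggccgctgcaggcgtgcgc
Id4: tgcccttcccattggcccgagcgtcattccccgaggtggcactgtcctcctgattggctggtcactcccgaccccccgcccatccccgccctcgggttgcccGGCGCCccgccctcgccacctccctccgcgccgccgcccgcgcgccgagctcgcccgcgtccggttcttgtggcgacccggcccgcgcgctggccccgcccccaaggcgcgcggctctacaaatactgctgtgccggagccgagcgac
GGCGCC, which reads the same on both strands, occurred once upstream of Id2, its first base at position -231 relative to the gene start, and once upstream of Id4, at position -148. It had 0 matches in the Id3 window and in those of Bmp4, Bmp5, Bmp6 and Gdf10. Over 32851 RefSeq promoter windows of the same length, 9.59% held it, so both matches are a description of the letters and not of Smad binding. The shorter Smad box GTCT, read on both strands, had 1 match for Id2, 2 for Id3 and 0 for Id4, and 82.9% of all windows held it. The E-box CANNTG, the site of E proteins, had 1 match for Id2 and 0 for Id3 and Id4, and 66.2% of all windows held it.

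Among the ligands, Bmp5 and Bmp6 separated the 4 sites most clearly. Bmp5 was high in Cranial cells alone among the sites, and Bmp6 was high in Oral cells alone. In limma's moderated F test over the 4 sites, with Benjamini-Hochberg adjustment over all genes, 5 of the 10 genes were called at an adjusted p under 0.05 (Bmp5, Bmp6, Id1, Id2 and Id4), against 21.1% of all genes.

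Bmp5 belongs to the same ligand subgroup as Bmp6 and Bmp7 and is needed for normal ear and skeletal form in the mouse. Its values were 5.88, 5.36 and 5.39 in Oral arrays, 7.90, 7.90 and 8.59 in Cranial arrays, 5.06, 4.64 and 4.73 in Ventral arrays and 4.68, 4.79 and 4.61 in Dorsal arrays. The 3 Cranial arrays lay above all others of the sites, and the Oral arrays above all Ventral and Dorsal arrays. Bmp5 was 3.44 ± 0.21 higher in Cranial than in Dorsal cells (log2 difference ± SE, limma adjusted p = 6.24e-06), against Dorsal levels little above the arrays' lower quartiles of 3.93 to 4.10. Against Ventral cells the Cranial difference was 3.32 (limma adjusted p = 5.76e-06). In Oral against Cranial cells Bmp5 fell by 2.58 ± 0.21 (limma adjusted p = 7.59e-05). These 3 calls held in each of 16 alternatives, of which the mean of its 3 probe sets gave the smallest sizes (1.28 in Cranial over Dorsal, 1.23 in Cranial over Ventral and -1.07 in Oral over Cranial cells). Oral cells were also 0.85 above Dorsal cells (limma adjusted p = 0.0174) and 0.73 above Ventral cells (limma adjusted p = 0.0378), both with SE 0.21. The Oral over Dorsal call was lost without Oral 1 (0.69, adjusted p = 0.0690), and the Oral over Ventral call without any 1 of the Oral arrays, Ventral 2 or Ventral 3 (adjusted p = 0.0627 to 0.137). Both were also lost on the mean of the probe sets (0.22 and 0.16, limma adjusted p = 0.226 and 0.373). The same held with all 18 arrays in 1 fit (limma adjusted p = 0.102 and 0.172). They were called in 13 and 7 of 16 alternatives.

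**Figure D1:**
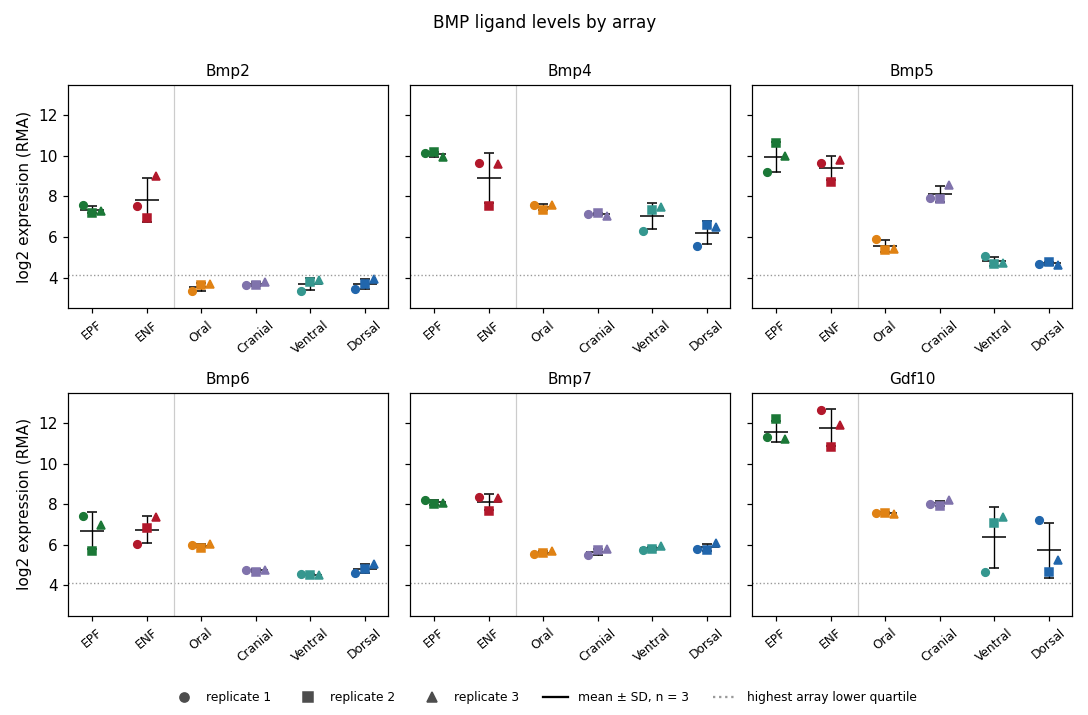
Levels of the 6 BMP ligands by array: log2 expression on the vertical axis, the 6 groups along the horizontal axis, symbols for the replicates, black marks for mean and SD, and a dotted line at the highest lower quartile of the arrays (4.10). The 3 Cranial arrays stand out for Bmp5 (7.90 to 8.59) and the 3 Oral arrays for Bmp6 (5.86 to 6.01), while Bmp2 lies below the dotted line in all 12 site arrays.

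Bmp6, which in liver sets the iron hormone hepcidin, measured 5.98, 5.86 and 6.01 in Oral arrays. It measured 4.78, 4.64 and 4.77 in Cranial arrays, 4.54, 4.48 and 4.51 in Ventral arrays and 4.61, 4.79 and 5.07 in Dorsal arrays. All Oral arrays were above all other site arrays. Bmp6 was 1.22 ± 0.12 higher in Oral than in Cranial cells (limma adjusted p = 0.000371), 1.44 ± 0.12 higher than in Ventral cells (limma adjusted p = 3.24e-05) and 1.13 ± 0.12 higher than in Dorsal cells (limma adjusted p = 0.000174). Levels of 4.51 to 4.82 in the other sites are little above the arrays' lower quartiles, where differences can be compressed. The Oral over Cranial difference was not called when all 18 arrays shared 1 fit (adjusted p = 0.167). No difference in Bmp6 among Cranial, Ventral and Dorsal cells passed the test (limma adjusted p = 0.231 to 0.621). Between Oral and Cranial cells Bmp5 and Bmp6 thus ran in opposite directions, and they were the 2 of 10 genes called there, against 1.14% of all genes. Their arrays did not overlap for 7 of the 10 genes, against 25.9% of all genes.

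Bmp4, a major dermal ligand, had values of 7.58, 7.33 and 7.56 in Oral arrays and 7.15, 7.18 and 7.06 in Cranial arrays. Ventral arrays gave 6.31, 7.34 and 7.47, and Dorsal arrays 5.56, 6.60 and 6.47. The Dorsal arrays were the lowest group, although Ventral 1 lay among them. Bmp4 was 1.28 ± 0.31 higher in Oral than in Dorsal cells (limma adjusted p = 0.0179), a call lost without Oral 1 (1.23, adjusted p = 0.0607) or Oral 3 (1.24, adjusted p = 0.0606). This call was also lost with all 18 arrays in 1 fit (limma adjusted p = 0.0705) and with only these groups in the fit (limma adjusted p = 0.0558). Bmp4 was 0.92 ± 0.31 higher in Cranial than in Dorsal cells, short of the threshold (limma adjusted p = 0.0640). This difference was called in 2 of 16 alternatives, among them without Dorsal 3 and Ventral 1 together (1.05, limma adjusted p = 0.0144). No neighbours in the order Oral, Cranial, Ventral, Dorsal differed past the threshold (limma adjusted p = 0.539 to 0.939). The Oral arrays nevertheless all lay above the Cranial arrays, by 0.36 on average, which was called when only these groups were fitted (adjusted p = 0.0483).

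Gdf10, also known as Bmp3b, is a divergent family member of the BMP3 subgroup. It was even within Oral arrays (7.58, 7.59 and 7.51) and Cranial arrays (8.01, 7.92 and 8.19). Ventral arrays gave 4.64, 7.09 and 7.36 and Dorsal arrays 7.24, 4.64 and 5.27, so that each of these groups held both high and low arrays. The Cranial over Dorsal difference of 2.32 ± 0.72 was called (limma adjusted p = 0.0452), but it was lost without any 1 Cranial array, Dorsal 2 or Dorsal 3 (adjusted p = 0.0955 to 0.136). The other site differences of Gdf10 did not pass the test, although Oral over Dorsal did without Dorsal 1 (2.61, adjusted p = 0.00857).

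Bmp7, needed for kidney and eye development, and Bmp2, a strong inducer of bone, were called in no comparison. Bmp7 averaged 5.60 ± 0.08 in Oral, 5.66 ± 0.15 in Cranial, 5.82 ± 0.08 in Ventral and 5.87 ± 0.19 in Dorsal cells (SD, n = 3 each). Its other probe sets lay near or below the arrays' lower quartiles in the site groups, also with no call. Probe set 1418910_at averaged 4.15 to 4.37 there, against 8.98 in EPF and 8.93 in ENF cells, and 1432410_a_at averaged 3.46 to 3.84. Bmp2 ranged from 3.31 to 3.95 over the 12 site arrays, at or below the arrays' lower quartiles.

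The Id genes were higher in both Wnt1Cre groups. Id1 and Id4 were called in all 4 comparisons of a Wnt1Cre with an En1Cre group, Id2 in both Cranial comparisons, and Id3, whose mean was also higher each time, in none of the 4. Counted over the 10 genes, 5 rose and 0 fell in Cranial over Dorsal cells (18.7% of all genes called, 11.2% higher and 7.45% lower). In Oral over Dorsal cells 5 rose and 0 fell (16.8%, 10.5% higher and 6.3% lower), in Oral over Ventral cells 4 and 0 (14.6%, 10.3% higher and 4.31% lower) and in Cranial over Ventral cells 4 and 0 (17.9%, 11.7% higher and 6.2% lower). The median difference of the 10 genes was 1.47, 1.20, 1.08 and 1.52 in those 4 comparisons, and that of all genes between -0.06 and -0.02. Arrays of the compared groups did not overlap for 6, 7, 8 and 7 of the 10 genes, against 35.5%, 30.1%, 44.4% and 54.9% of all genes. The split of all genes turned with the scaling: with each array centred on its median, the shares higher and lower were 7.81% and 29.2% in Cranial over Dorsal, 7.35% and 22.2% in Oral over Dorsal, 7.51% and 15.5% in Oral over Ventral and 9.29% and 24.9% in Cranial over Ventral cells. With quantile normalized columns they were 10.01% and 10.8%, 9.78% and 9.58%, 8.89% and 8.23%, and 9.88% and 10.6% in that order. Among the 10 genes, centring gave 6, 6, 3 and 4 calls, with Bmp7 against Dorsal cells as the 1 gene that fell. Without Dorsal 3 and Ventral 1 together, the 4 counts were 7, 7, 6 and 5, with 21.6%, 19.9%, 17.9% and 19.6% of all genes called. This alternative was added after seeing the data and left the arrays out for their Id levels, so these counts add no support.

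Id1 had 9.99, 10.24 and 10.17 in Oral arrays and 10.41, 10.36 and 10.64 in Cranial arrays. Ventral arrays gave 8.15, 6.34 and 6.83, and Dorsal arrays 7.10, 6.26 and 9.31. No En1Cre array reached the lowest Oral array, and Dorsal 3 came closest. Id1 was 3.36 ± 0.65 higher in Cranial than in Ventral cells (limma adjusted p = 0.00591) and 3.03 ± 0.65 higher in Oral than in Ventral cells (limma adjusted p = 0.0106), folds of 10.3 and 8.15. Against Dorsal cells the differences were 2.91 for Cranial (limma adjusted p = 0.0121) and 2.58 for Oral (limma adjusted p = 0.0207). The Cranial call was lost with only these groups in the fit (adjusted p = 0.0712), and the Oral call likewise (adjusted p = 0.0989). The Oral call was also lost without Dorsal 2 (1.93, adjusted p = 0.0583) and without any 1 Oral array (adjusted p = 0.0548 to 0.0709). Without Dorsal 3, picked by its Id values, the Cranial and Oral differences from Dorsal cells were 3.79 and 3.45 (limma adjusted p = 0.000372 and 0.000511).

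**Figure D2:**
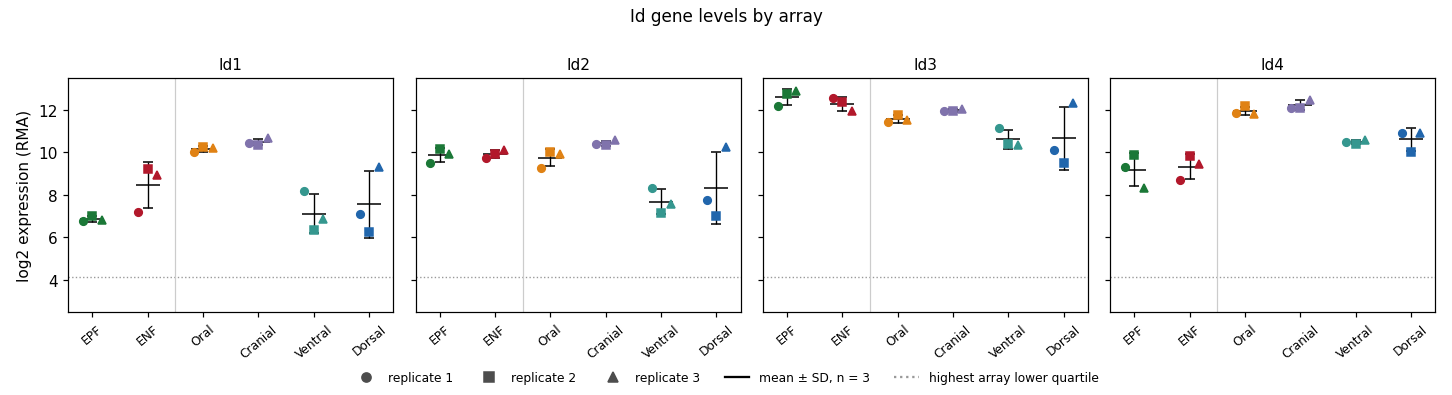
Levels of the 4 Id genes by array, drawn as for the ligands: log2 expression on the vertical axis, groups along the horizontal axis, symbols for replicates, and black marks for mean and SD. For Id1 the 6 Oral and Cranial arrays (9.99 to 10.64) lie above every Ventral and Dorsal array, and Dorsal 3 (9.31) lies well above Dorsal 1 and 2.

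Id2, which in fat and immune cells bears on lineage choice, had values of 9.26, 10.03 and 9.91 in Oral arrays and 10.37, 10.33 and 10.55 in Cranial arrays. Ventral arrays gave 8.31, 7.12 and 7.58 and Dorsal arrays 7.73, 6.98 and 10.22. Dorsal 3 lay among the Wnt1Cre arrays and the other 2 Dorsal arrays far below. Id2 was 2.75 ± 0.65 higher in Cranial than in Ventral cells (limma adjusted p = 0.0157) and 2.11 ± 0.65 higher than in Dorsal cells (limma adjusted p = 0.0459). The call against Ventral cells was lost without Cranial 1, Cranial 3 or Ventral 2 (adjusted p = 0.0527 to 0.0611), and that against Dorsal cells without any 1 Cranial array, Dorsal 1 or Dorsal 2 (adjusted p = 0.0678 to 0.134). Without Dorsal 3, picked by its Id values, the Cranial over Dorsal difference was 3.06 (limma adjusted p = 0.000335). The Oral over Dorsal one, 1.42 with all arrays (limma adjusted p = 0.169), was then 2.38 (limma adjusted p = 0.00120). Oral over Ventral arrays did not overlap and differed by 2.06 ± 0.65, short of the threshold (limma adjusted p = 0.0584), called in 6 of 16 alternatives, among them without Dorsal 3 and Ventral 1 together (2.38, adjusted p = 0.000326). The Cranial over Dorsal difference was also not called on the mean of its probe sets (1.20, adjusted p = 0.0586) or with only these groups in the fit (adjusted p = 0.163).

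Id3, like Id1 a regulator of vessel growth, was high everywhere. It had 11.44, 11.75 and 11.49 in Oral arrays, 11.94, 11.93 and 12.05 in Cranial arrays, 11.12, 10.39 and 10.31 in Ventral arrays and 10.08, 9.50 and 12.33 in Dorsal arrays. Dorsal 3 held the highest Id3 value of the 12 site arrays and the other Dorsal arrays the 2 lowest. Differences were 0.92 to 1.37 in the 4 comparisons of Wnt1Cre with En1Cre groups, with limma adjusted p = 0.112 to 0.302. Without Dorsal 3 the Cranial over Dorsal difference was 2.18 (adjusted p = 0.000328) and the Oral over Dorsal one 1.77 (adjusted p = 0.000926). With Ventral 1 also left out, Id3 was called against Ventral cells too (1.62 for Cranial, limma adjusted p = 0.000259, and 1.21 for Oral, limma adjusted p = 0.00115). Both arrays were left out for their Id values, so these p-values add no support.

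Id4, the family member linked to neural and adipose differentiation, had 11.85, 12.16 and 11.78 in Oral arrays and 12.06, 12.07 and 12.47 in Cranial arrays. Ventral arrays gave 10.49, 10.40 and 10.59 and Dorsal arrays 10.91, 9.98 and 10.91. Here Dorsal 3 lay level with Dorsal 1. The differences were 1.71 for Cranial and 1.44 for Oral over Ventral cells and 1.60 for Cranial and 1.33 for Oral over Dorsal cells, each with SE 0.23 (limma adjusted p = 0.000842, 0.00236, 0.00126 and 0.00323). This result rests on 1 of 3 probe sets. Probe set 1450928_at differed the same way by 0.66, 0.54, 0.36 and 0.24 and passed in none of the 4 (limma adjusted p = 0.110 to 0.589), and 1423260_at differed by -0.14, -0.04, -0.36 and -0.27, also with no call.

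**Figure D3:**
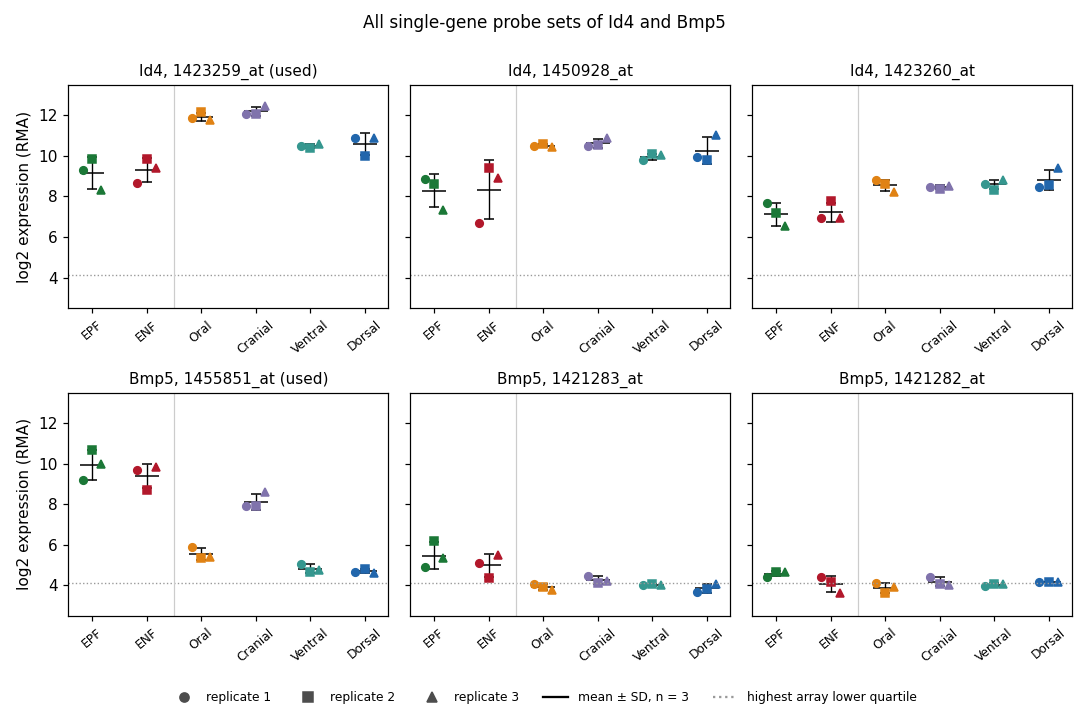
All probe sets with 1 gene symbol for Id4 (upper row) and Bmp5 (lower row): log2 expression by group, with replicate symbols, mean and SD, and a dotted line at the highest array lower quartile (4.10). The used Id4 probe set separates Oral and Cranial from Ventral and Dorsal arrays, the other Id4 probe sets less or not, and the other Bmp5 probe sets lie near the dotted line in the site arrays.

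The other probe sets of Bmp5, 1421283_at and 1421282_at, averaged 3.85 to 4.26 over the site groups and gave no call. Of Id2's other probe sets, 1422537_a_at was called for Cranial over Ventral cells (1.88, limma adjusted p = 0.0340) and not for Cranial over Dorsal cells (1.35, limma adjusted p = 0.105), and 1453596_at was called in neither. The plot of differences places all 10 genes side by side. No Id gene was called between Oral and Cranial cells (differences of -0.69 to -0.27, limma adjusted p = 0.937 to 0.994), although the mean was lower in Oral cells for all 4 and the arrays of Id1, Id2 and Id3 did not overlap, as in 25.9% of all genes. With only these groups in the fit, Id2 (-0.69, adjusted p = 0.0128) and Id3 (-0.41, adjusted p = 0.0282) were called. Ventral and Dorsal cells differed in 0 of the 10 genes with limma, against 0.0275% of all genes (1555 genes at an unadjusted p under 0.05), and their arrays overlapped in all but 1 of the 10, Bmp6, against 10.1% of all genes without overlap.

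**Figure D4:**
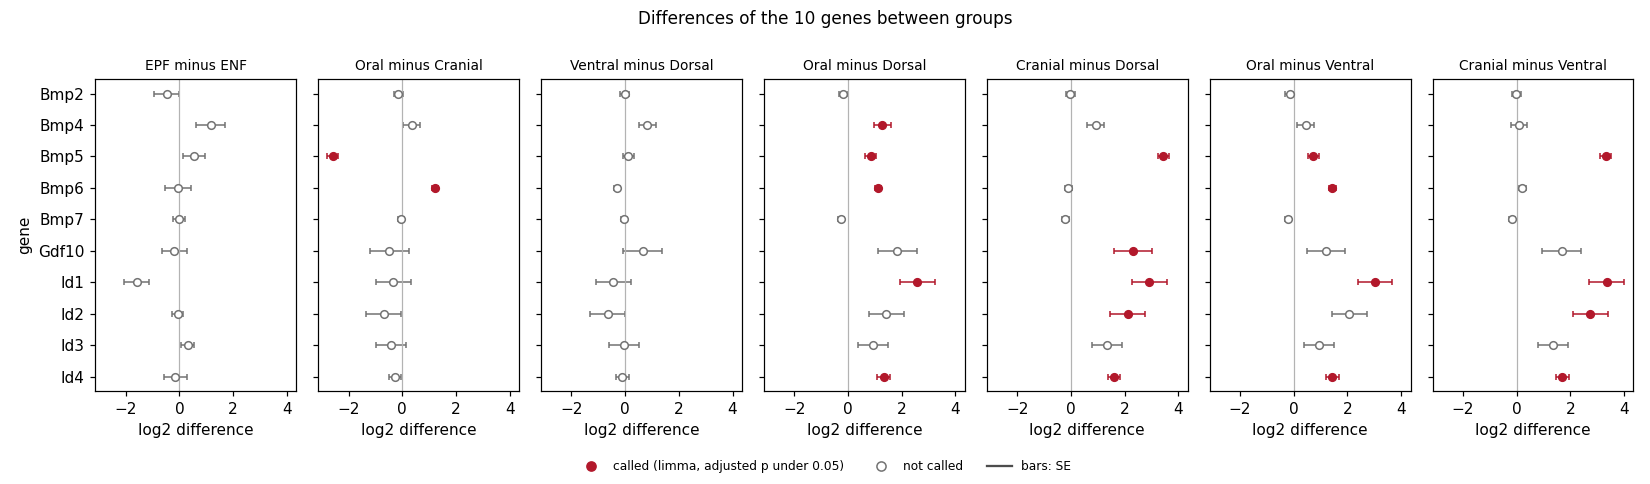
Log2 differences of the 10 genes in the 7 comparisons, 1 panel each, with bars for the SE and filled red points for calls at an adjusted p under 0.05 (limma). Bmp5 and Bmp6 are called in opposite directions in Oral minus Cranial, and filled points to the right of 0 appear in the 4 panels that set a Wnt1Cre group against an En1Cre group.

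Several measures are given beside the Id genes, and not all of them moved with those genes. The mean of 8 immediate early genes (Fos, Jun, Egr1 and 5 others, induced by cell handling) was 10.51 to 10.72 in Oral arrays and 10.71 to 10.96 in Cranial arrays, against 9.53 to 9.56 in Ventral arrays and 8.89 to 9.55 in Dorsal arrays. Its part in the lineage differences was not tested. Dorsal 3, the En1Cre array with the highest Id levels, had an immediate early mean of 9.42, inside the range of its group. The members of the list disagreed. Of the Dorsal arrays, Dorsal 3 was highest for Junb (8.96), Dusp1 (10.35) and Atf3 and lowest for Fos (10.22) and Egr1 (11.71). For Fosb, Jun and Ier2 it lay between the others. The part of cell handling in the Id levels of Dorsal 3 was not tested. The adipocyte list (4 genes measured) averaged 7.19 to 7.26 in Oral and 7.73 to 8.01 in Cranial arrays, against 8.15 to 9.50 in Ventral and 8.65 to 10.53 in Dorsal arrays, and Adipoq was near background in both Wnt1Cre groups; its part was not tested. The mural list was 9.25 in Ventral 1, against 8.13 to 8.21 in the other Ventral arrays. The fibroblast list was 11.64 in Ventral 1, against 12.62 and 12.65 in the other Ventral arrays, and 13.29 in Dorsal 3, against 12.58 and 12.47 in the other Dorsal arrays. Lum, a matrix proteoglycan on that list, was 5.65 in Ventral 1, against 9.55 and 9.62, and 12.02 in Dorsal 3, against 8.82 and 8.68. The part of these markers in the Id levels of both arrays was not tested. Actb signal was more 3′-weighted in Dorsal arrays, where the 3′ minus 5′ probe set difference was 2.47 to 3.16, than in Oral arrays (1.89 to 1.98), Cranial arrays (2.01 to 2.11) and Ventral arrays (2.04 to 2.83). For Gapdh the Dorsal range of 2.64 to 2.88 overlapped those of Oral (2.56 to 2.69) and Cranial arrays (2.45 to 2.66). Ventral arrays had 2.27 to 2.61. The part of RNA quality was not tested. The keratinocyte list averaged 4.27 to 4.42 in Oral and 4.52 to 4.62 in Cranial arrays, against 4.33 to 4.42 in Ventral and 4.31 to 4.77 in Dorsal arrays. Its members Trp63 and Cdh1 were near background in all 4 site groups, Krt5 averaged 5.84 to 6.22, Dsp reached 5.92 in Dorsal 1, and Perp averaged 5.49 in Oral and 6.92 in Cranial cells, against 4.73 in Ventral and 4.51 in Dorsal cells. The part of these markers was not tested.

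In dorsal back skin, EPF and ENF cells differed in 0 of the 10 genes with limma, against 0.308% of all genes (1967 genes at an unadjusted p under 0.05). Id1 came closest. It measured 6.74, 7.01 and 6.80 in EPF arrays and 7.19, 9.21 and 8.94 in ENF arrays, which did not overlap. The difference of -1.60 ± 0.48 had a limma adjusted p of 0.284, and it was called only without ENF 1 (-2.22, adjusted p = 0.0133). Bmp4 measured 10.13, 10.18 and 9.94 in EPF arrays and 9.65, 7.51 and 9.59 in ENF arrays, again without overlap, a difference of 1.16 ± 0.53 (limma adjusted p = 0.481). ENF 2 lay far below the other ENF arrays, and without it the difference was 0.46, again not called (adjusted p = 0.412). These were 2 of 10 genes whose groups did not overlap, against 17% of all genes.

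The other 8 genes overlapped between EPF and ENF arrays. Bmp5 averaged 9.94 ± 0.73 in EPF and 9.40 ± 0.60 in ENF cells, Gdf10 11.59 ± 0.53 and 11.78 ± 0.92, Bmp6 6.70 ± 0.89 and 6.74 ± 0.66, and Bmp7 8.09 ± 0.12 and 8.10 ± 0.38 (SD, n = 3 each). Bmp2 averaged 7.36 ± 0.19 in EPF cells and 7.83 ± 1.07 in ENF cells, where ENF 3 reached 9.01. Id2 averaged 9.85 ± 0.33 in EPF and 9.91 ± 0.20 in ENF cells, Id3 12.59 ± 0.37 and 12.27 ± 0.31, and Id4 9.16 ± 0.78 and 9.32 ± 0.58. Dermal papilla markers averaged 5.04 to 6.20 in EPF arrays and 4.30 to 4.58 in ENF arrays, skeletal muscle markers 4.99 to 5.31 and 6.52 to 7.53, and keratinocyte markers were higher in 2 of 3 ENF arrays than in every EPF array. Mural markers averaged 8.90 to 9.20 in EPF arrays and 6.95 to 7.18 in ENF arrays, leukocyte markers 5.83 to 6.46 and 5.26 to 5.73, and Schwann and melanocyte markers 7.97 to 8.64 and 7.15 to 7.69. The part of these lists in the levels was not tested.

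All 6 ligands stood at higher levels in the EPF and ENF arrays than in the Dorsal and Ventral arrays, although EPF and Dorsal carry the same genotype, gate and tissue label. Bmp5 was 9.94 in EPF and 4.69 in Dorsal cells on average, Gdf10 11.59 and 5.72, Bmp4 10.08 and 6.21, Bmp7 8.09 and 5.87, Bmp2 7.36 and 3.69, and Bmp6 6.70 and 4.82. On its probe set 1418910_at, Bmp7 was 8.98 in EPF and 4.15 in Dorsal cells. Of the Id genes, Id2 was also higher in EPF cells (9.85 against 8.31 in Dorsal cells), as was Id3 (12.59 against 10.64). Id4 ran the other way, with 9.16 in EPF and 10.60 in Dorsal cells, and Id1 averaged 6.85 and 7.56. The immediate early mean was 13.02 to 13.21 in EPF and 12.53 to 12.87 in ENF arrays, above all site arrays, and the labelled ages differ too. Because EPF and Dorsal arrays lie in different sets, these values carry no test.

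Within the site arrays the Id genes followed each other from array to array, and the ligands followed them unevenly. Correlations are given within sets of arrays as descriptions; the arrays of a group share a gate and a site, and within 6 arrays the difference between the groups also enters. Among the 6 Dorsal and Ventral arrays, Pearson's r was 0.98 for Id1 with Id2 (Spearman's rho 1), 0.94 for Id1 with Id3 (rho 0.77) and 0.95 for Id2 with Id3 (rho 0.77). Without the 2 arrays farthest from the median of Id1, Dorsal 3 and Ventral 1, the first remained at 0.99 and the second was 0.36. Among the 6 Cranial and Oral arrays these pairs had r of 0.93 to 0.94. As deviations from the 4 group means over 12 arrays, the 3 pairs had r of 0.96 to 0.98 and pairs with Id4 0.58 to 0.61. In the 6 EPF and ENF arrays the 6 Id pairs ranged from -0.59 to 0.50, so the Id genes did not follow each other there.

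Of the 24 pairs of a ligand with an Id gene, 14 had r above 0 in Dorsal and Ventral arrays (median 0.07), 16 in Cranial and Oral arrays (median 0.56) and 8 in EPF and ENF arrays (median -0.13). Bmp4 ran against the Id genes within the Wnt1Cre arrays, with r of -0.85 to -0.999, and its r with Id1 was -0.34 in Dorsal and Ventral and -0.79 in EPF and ENF arrays. Bmp2 had r above 0 with Id1 in all 3 sets (0.84 in Cranial and Oral, 0.07 in Dorsal and Ventral and 0.33 in EPF and ENF arrays), but its r in Cranial and Oral arrays was -0.67 without the 2 farthest arrays, and its site values are near background. Bmp5 had r of 0.83 with Id1 in Cranial and Oral arrays, 0.07 in Dorsal and Ventral arrays and -0.47 in EPF and ENF arrays, and the last 2 changed sign without the 2 farthest arrays. Bmp6 had r of -0.82 with Id1 in Cranial and Oral arrays, where it marks Oral cells, and 0.62 in Dorsal and Ventral arrays. Bmp7 had r of 0.50 with Id1 in Cranial and Oral arrays, 0.69 in Dorsal and Ventral arrays and -0.37 in EPF and ENF arrays. Gdf10 had 0.90, -0.40 and -0.31 in that order. Without the 2 farthest arrays of each ligand, Bmp7 had 0.88, -0.16 and 0.67 with Id1 in that order, and Gdf10 0.68, -0.95 and 0.42. In Dorsal and Ventral arrays Bmp6 then had 0.45 with Id1, 0.50 with Id2 and -0.20 with Id3. As deviations from the group means over the 12 site arrays, Bmp6 had r of 0.65 to 0.70 with Id1, Id2 and Id3. Bmp7 had 0.55 to 0.67, and the other ligands -0.36 to 0.33. All Bmp7 correlations rest on the probe set that stood for it, as its others lay near background in the site groups. Dorsal 3, with the highest Id1 of its group, also had the highest Dorsal Bmp6 (5.07), but its Bmp4 (6.47) lay between those of Dorsal 1 and 2.

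**Figure D5:**
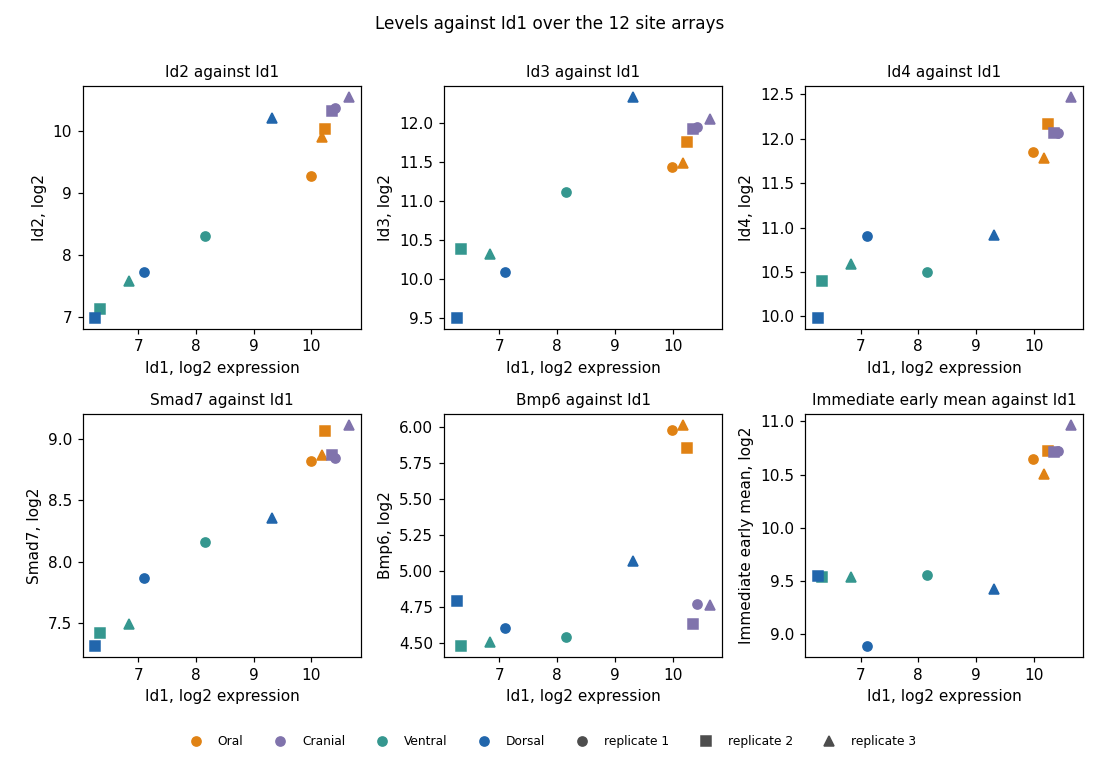
Levels against Id1 over the 12 site arrays: Id1 on the horizontal axis, and Id2, Id3, Id4, Smad7, Bmp6 or the mean of 8 immediate early genes on the vertical axis, all log2, 1 point per array with colours for sites and symbols for replicates. Id2 and Smad7 climb with Id1 inside the Dorsal and Ventral groups as well as between sites. The immediate early mean of Dorsal 3 is 9.42, and the part of cell handling in its Id levels was not tested.

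Over the 12 site arrays, the genes most like each called member were searched among 3835 others also called in the F test, and these r include the differences between sites. Closest to Id1 were Smad7, a feedback inhibitor of TGF-beta and BMP receptors (0.987), Vcl, the focal adhesion protein vinculin (0.985), and Ereg, an EGF receptor ligand (0.971). Smad7 had 8.82, 9.07 and 8.87 in Oral arrays, 8.85, 8.87 and 9.11 in Cranial arrays, 8.16, 7.42 and 7.49 in Ventral arrays and 7.87, 7.32 and 8.36 in Dorsal arrays. As with Id1, Dorsal 3 and Ventral 1 were the highest arrays of their groups. Nearest to Id2 were Id1 itself (0.971), Gbp2b (0.968) and Egr3 (0.960), an immediate early gene, and nearest to Id4 were Arc (0.988), also an immediate early gene, Ppp2ca (0.981) and Alkbh5 (0.979). Bmp5 was most like Perp, an epithelial junction gene on the keratinocyte list (0.984, with 6.92 in Cranial against 4.51 in Dorsal cells on average), Tmem178 (0.983) and Moxd1 (0.980). For Bmp6 they were Ebf2, a transcription factor of adipocyte precursors (0.983), Vat1l (0.973) and AI606473 (0.971). In the 6 EPF and ENF arrays Smad7 and Id1 had r of -0.46 and Perp and Bmp5 -0.80.

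Of 52 other pathway genes listed, 48 were measured. In the 4 comparisons of Wnt1Cre with En1Cre groups, 9 to 11 of the 48 rose and 2 to 4 fell. Of all genes, 10.3% to 11.7% rose there and 4.31% to 7.45% fell. With limma 0 of the 48 were called between Oral and Cranial cells, against 1.14% of all genes. Between Ventral and Dorsal cells 0 were called, against 0.0275% of all genes. Other targets and feedback genes rose in 3 to 5 of 10 and fell in 0. Tob1, an antiproliferative protein that restrains Smad signalling, was 2.55 ± 0.31 higher in Cranial than in Ventral cells (limma adjusted p = 0.000476) and 1.89 to 2.29 higher in the other 3. Msx1, a homeobox target of BMPs in the facial mesenchyme, was 2.02 ± 0.21 higher in Oral than in Dorsal cells (limma adjusted p = 0.000164) and 1.98 higher than in Ventral cells. It also rose in Cranial cells, by 1.12 over Dorsal and 1.07 over Ventral cells. Smad7 rose by 1.07 to 1.25 in all 4, and Smad6, the BMP-selective inhibitory Smad, by 1.06 in Cranial and 0.93 in Oral over Dorsal cells.

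Receptors were called in both directions. The type I receptor Acvr1, the type II receptor Acvr2a and the co-receptor Rgmb rose in all 4 comparisons, Rgmb by 1.41 ± 0.16 in Cranial over Ventral cells (limma adjusted p = 0.000319) and 1.12 in Cranial over Dorsal cells. Bmpr1a, a main type I receptor for BMPs, rose by 1.15 in Cranial and 0.78 in Oral over Ventral cells. Acvr2b fell by 0.59 in Cranial against Dorsal, 0.78 in Oral against Dorsal and 0.61 in Oral against Ventral cells, and Neo1, which binds Rgm proteins, fell by 0.83 in Cranial against Dorsal cells (limma adjusted p = 0.0402). The signal transducers Smad1, Smad4, Smad5 and Smad9 were called in 0 of 4 in every comparison with limma. Of all genes, 0.0275% to 18.7% were called, depending on the comparison. Among 7 other ligands measured, only Gdf2 was called, and it fell by 0.51 in Cranial against Dorsal cells (limma adjusted p = 0.0152). There 7.45% of all genes fell.

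Of 13 measured antagonists, which bind BMPs or activins outside the cell, 3 rose and 0 fell in Cranial over Dorsal cells (Bmper by 0.85, Twsg1 by 0.79 and Nbl1 by 0.77), and 1 rose and 2 fell in Oral over Dorsal cells. Against Ventral cells 1 rose and 3 fell in Oral and 1 rose and 2 fell in Cranial cells. Of all genes, 11.2% rose and 7.45% fell in Cranial over Dorsal cells, and 10.5% and 6.3% in Oral over Dorsal cells. The shares were 10.3% and 4.31% in Oral over Ventral and 11.7% and 6.2% in Cranial over Ventral cells. Fst had 7.72, 7.55 and 7.29 in Oral arrays and 10.78, 9.26 and 9.17 in Ventral and 10.12, 9.20 and 11.22 in Dorsal arrays, with no overlap. It fell by 2.66 ± 0.49 in Oral against Dorsal cells (limma adjusted p = 0.00425) and by 2.21 against Ventral cells. Grem1 fell by 1.27 in Oral against Dorsal cells, by 1.51 against Ventral cells and by 0.93 in Cranial against Ventral cells (limma adjusted p = 0.00557, 0.00243 and 0.0258). Fstl3 fell by 0.96 in Oral and 0.84 in Cranial against Ventral cells. Bmper, which can both bind and promote BMPs, ran the other way and rose by 1.74 ± 0.25 in Cranial and 1.33 in Oral over Ventral cells (limma adjusted p = 0.00122 and 0.00577). Of the E proteins that Id proteins bind, Tcf4 rose by 1.02 in Oral and 0.93 in Cranial over Ventral cells. In EPF against ENF cells 1 of 48 was called, against 0.308% of all genes. Chrdl2, a chordin-like antagonist, had 4.37, 4.21 and 4.46 in EPF arrays against 6.19, 6.38 and 7.06 in ENF arrays and fell by 2.20 ± 0.24 (limma adjusted p = 0.0180).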

How the data were processed

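Total RNA of sorted dermal cells was measured on Affymetrix 430 2.0 mouse arrays, per the labels' protocols. The authors ran RMA and quantile normalization in R, per the series design text, and deposited log2 values for 45101 probe sets on 18 arrays. Whether the 18 arrays were normalized together, and with which software versions, is not stated there. After 64 control probe sets were set aside, 34945 probe sets carried 1 gene symbol, 932 several and 9160 none; 34741 of the first matched the mouse gene table by Entrez identifier. Each of 18193 genes was represented by its probe set with the highest mean. Groups and replicate numbers came from the sample titles.

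Differences were tested with limma 3.58.1 (lmFit and eBayes, R 4.3.3), adjusted by Benjamini-Hochberg over all 18193 genes and called at an adjusted p under 0.05. The back-skin groups (6 arrays) and the 4 sites (12 arrays) were fitted separately. No dim gene was removed, and the number of arrays limits the precision. The scripts were tested on simulated data. Replicate numbers did not pair the samples: deviations of same-numbered arrays correlated at -0.384 to 0.302. Lists and named genes followed rules (up to 3 called pathway genes a direction with the largest difference; the 3 genes most like each member called in the F test), and genes named beyond those were chosen after their values were seen. The members and lists were chosen with earlier results of these data known.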

Additional observations from a re-analysis of the deposited data

How the results depend on the processing

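Of 70 differences of the 10 genes, 20 were called. Over 362 alternative values of these, 7 changed sign and 58 lost the call with the sign kept; of 864 alternative values of the others, 66 changed sign without a call and 37 gained one. The 7 reversed values all came from other probe sets, none called: 1423260_at of Id4 (-0.36 in Cranial over Dorsal, -0.27 in Oral over Dorsal, -0.043 in Oral over Ventral and -0.14 in Cranial over Ventral cells), 1421282_at of Bmp5 (-0.28 in Oral over Dorsal and -0.15 in Oral over Ventral cells) and 1421283_at of Bmp5 (-0.093 in Oral over Ventral cells). The number of the 10 genes called moved as follows, and the cause was not tested. Array weights gave 8 in the F test (5 in the main setting), 8 in Oral over Dorsal (5), 7 in Cranial over Ventral (4) and 2 in Ventral over Dorsal cells (0), with 63.8%, 49.3%, 48.7% and 5.23% of all genes called. Fitting only the 2 groups compared gave 6 in Oral over Cranial (2), 2 in Cranial over Dorsal (5) and 3 in Oral over Dorsal cells (5). Of all genes, 9.87%, 6.83% and 5.85% were called there, against 1.14%, 18.7% and 16.8% in the main setting. All 18 arrays in 1 fit gave 1 in Oral over Cranial and 3 in Oral over Dorsal cells, with 0.978% and 14.7% of all genes. The mean of probe sets per gene gave 3 in Cranial over Dorsal and 3 in Oral over Dorsal cells. There 16.4% and 15.1% of all genes were called. Leaving out 1 array gave 0 to 1 in EPF over ENF (0.022% to 0.715% of all genes). It gave 2 throughout in Oral over Cranial (0.61% to 0.709%) and 0 throughout in Ventral over Dorsal (0.0165% to 0.885%). The counts were 3 to 5 in Cranial over Dorsal (9.04% to 33.8%) and 2 to 7 in Oral over Dorsal (9.73% to 30.9%). They were 3 to 4 in Oral over Ventral (7.81% to 12.5%) and 3 to 4 in Cranial over Ventral cells (9.02% to 12.9%). In the F test 4 to 7 were called (13.8% to 38.5%). With the replicate number as a block the counts were 4 in Cranial over Dorsal, 3 in Oral over Ventral cells and 6 in the F test. Of all genes, 16.1%, 12.9% and 17.7% were called there. The counts in the other 5 were the same as without the block. Gdf10 in Cranial over Dorsal (limma adjusted p = 0.0754) and Bmp5 in Oral over Ventral cells (0.0558) were no longer called with the block.

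Counts over all genes moved more: over all alternatives 4 to 460 in EPF over ENF (56 in the main setting), 111 to 1926 in Oral over Cranial (207), 0 to 952 in Ventral over Dorsal (5), 1242 to 10113 in Cranial over Dorsal (3393), 1065 to 8963 in Oral over Dorsal (3065), 1420 to 7724 in Oral over Ventral (2665), 1641 to 8854 in Cranial over Ventral (3251) and 2513 to 11606 in the F test (3836). Centring each array on its median shifted the median of all genes by -0.21 in Cranial over Dorsal, -0.20 in Oral over Dorsal, -0.17 in Oral over Ventral and -0.18 in Cranial over Ventral cells; with it Bmp7 was called lower in Cranial (-0.42) and Oral (-0.47) over Dorsal cells. Having 3 arrays a group and levels near or little above background (Bmp2 in all sites, Bmp6 in 3, Bmp5 in Ventral and Dorsal cells, Gdf10 in Ventral 1 and Dorsal 2, both 4.64) limits what could be seen. The other probe sets of Bmp7 also lay near background in all sites.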
